A study of Malus domestica with 6 samples.

Results

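The genes described here encode the first enzymes of the phenylpropanoid pathway in apple, namely phenylalanine ammonia lyase (PAL), cinnamate 4-hydroxylase (C4H) and 4-coumarate-CoA ligase (4CL). They are 8 of the 46558 genes in the expression table: MdPAL-1 to MdPAL-3, MdC4H-1 to MdC4H-4 and Md4CL. All 8 were chosen because the study had listed them as differentially expressed genes (DEGs) between these same libraries, and the names are those of the study. The comparison between the varieties therefore chose the genes, so that their levels and fold changes are given as a description, without a test. RNA-seq was performed on the pulp of unbagged, fully ripe Jonagold and Granny Smith apples, with 3 libraries for the red-skinned variety Jonagold and 3 for the green-skinned variety Granny Smith. Both varieties were grafted onto the same rootstock at a single orchard and harvested in a single year. Each library was made from the peeled and pooled pulp of several fruits, so that differences between single fruits were not measured. The question was how the genes behind aroma volatiles, among them the phenylpropene estragole, differ between these varieties.

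The phenylpropanoid pathway turns the amino acid phenylalanine into lignin precursors, flavonoids, hydroxycinnamic acids such as chlorogenic acid, and volatile phenylpropenes. PAL removes the amino group of phenylalanine and yields cinnamic acid. C4H, a cytochrome P450 of the endoplasmic reticulum, adds a hydroxyl group to give p-coumaric acid, and 4CL couples this acid to coenzyme A. In plants these enzymes are usually encoded by small gene families, whose members differ in the tissues and conditions in which they are expressed. Estragole is formed further down, by reduction of coumaroyl-CoA, later side-chain steps and a final O-methylation.

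Gene expression was deposited as FPKM, by definition the fragments of a gene relative to its length and to the mapped reads of the library. Levels in this unit can be compared between genes, but the library scale here was not that of the mapped reads alone. Each FPKM value was a whole number of reads scaled by its library and by its gene, so that the reads behind it could be recovered. Sequencing was paired-end, and what is called a read here may be a read pair. A gene's recovered reads may all have been divided by a common number, which leaves their ratios between libraries as they are. The libraries held 14782112 to 17258070 recovered reads in Jonagold and 17601935 to 17733010 in Granny Smith. In the mapping statistics of the study, every Jonagold library had a smaller mapped share of its reads than any Granny Smith library. This difference goes with the variety, and its effect on the values was not tested. A read was worth 1.29 to 1.46 times as much FPKM in the Jonagold libraries as in Granny Smith replicate 1, and 0.942 and 0.956 times as much in the other Granny Smith libraries. This is more than the recovered depth alone would give. The values that the study lists for the 8 genes, also headed FPKM, are the recovered reads times a factor of the library alone. They are thus on another scale than the FPKM given here, and none of the 8 genes had a divisor of its own. Between libraries these factors stand in the same proportion as the worth of a read, so that both sets of values share a library scaling. How it was derived is not stated. When each library was scaled to its own recovered reads, the median log2 fold change, taken over the tested genes, was -0.31 in place of 0.00. The labelled tissue could not be checked against marker genes of pulp or peel, because the table does not pair its identifiers with gene names.

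The 3 families differed widely in level. The summed FPKM of the 4 C4H genes was 59.9 ± 17.5 in Jonagold and 142 ± 24.3 in Granny Smith (SD, n = 3 libraries each). The 3 PAL genes together reached 4.21 ± 0.998 FPKM in Jonagold and 1.25 ± 0.134 in Granny Smith, and Md4CL reached 0.441 ± 0.345 in Jonagold and 2.78 ± 0.992 in Granny Smith. The C4H sum was thus lower in Jonagold, the PAL sum was higher in Jonagold and Md4CL was lower in Jonagold, without overlap between the varieties in any of these sums. In bulk pulp, fewer cells of a type and less RNA per cell cannot be told apart. The sums cover the genes named by the study, and other copies of these families were not analysed here. The contrast chose these genes, so that the directions of the sums are a description.

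**Figure D1:**
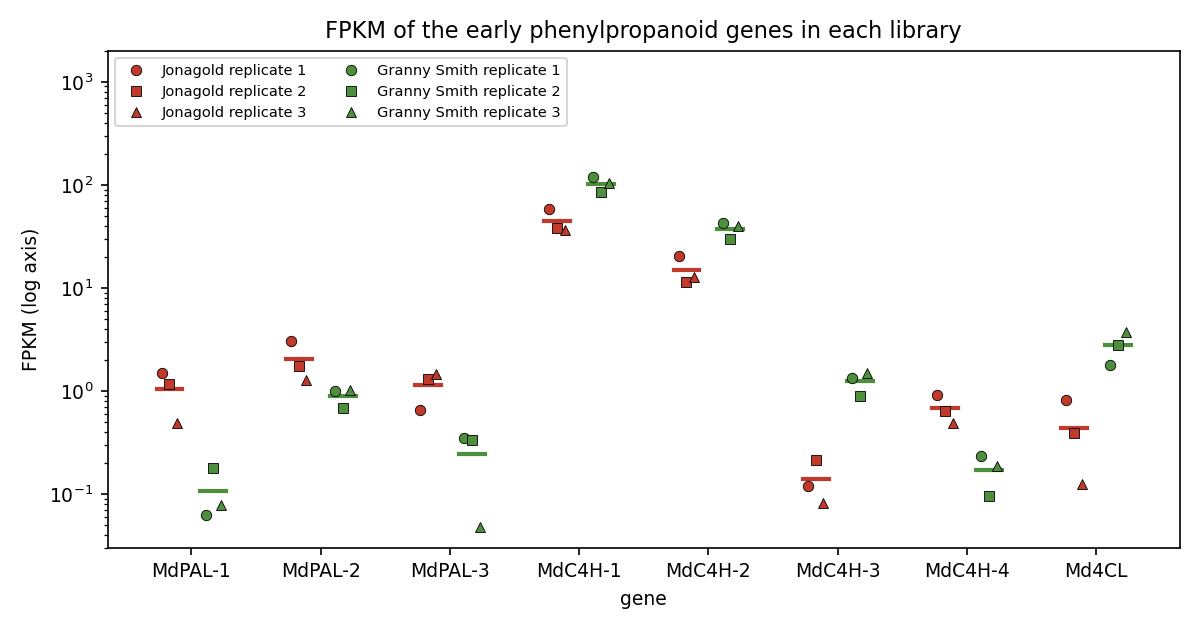
FPKM (log axis) of the 8 early phenylpropanoid genes in each library, with Jonagold in red left of Granny Smith in green, 1 symbol per replicate and a bar at the mean of the 3 libraries. MdC4H-1 and MdC4H-2 lie above 11 FPKM in all libraries, whereas the other 6 genes lie below 4 FPKM.

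The varieties did not overlap in any of the 8 genes, of which 4 were higher in Jonagold (MdPAL-1, MdPAL-2, MdPAL-3 and MdC4H-4) and 4 were lower (MdC4H-1, MdC4H-2, MdC4H-3 and Md4CL). Among all 34279 genes above 0 in at least 1 library, 48.7% did not overlap, 24.6% being higher and 24.1% lower in Jonagold. When the libraries were scaled to their recovered reads, or when their FPKM totals were made equal, the directions stayed the same for the 8 genes but MdPAL-2 overlapped between the varieties. For the comparison across the whole table, limma was run on log2(FPKM + 1) for the 20993 genes whose mean was at least 1 FPKM. This mean was reached by 4 of the 8 genes, namely MdPAL-2, MdC4H-1, MdC4H-2 and Md4CL. A call required a Benjamini-Hochberg adjusted p-value under 0.05 together with a difference of 2-fold or more on this scale. By this rule 3 of the 8 genes were called, all of them lower in Jonagold (MdC4H-1, MdC4H-2 and Md4CL), beside 21.3% of all tested genes, 12.0% being called higher and 9.34% lower. Nothing is read from these counts, since the same contrast chose the genes. The median log2 fold change was -0.23 over the 8 genes, with the 4 low genes taken from a fit without the minimum mean, and 0.00 over all tested genes. The value of -0.23 describes none of the 8 genes. Those lower in Jonagold lay at -1.39 to -0.97 and those higher at 0.51 to 0.85.

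MdPAL-2 (MD01G1106900, chromosome 1) was the most abundant of the 3 PAL genes in each Granny Smith library and in Jonagold replicates 1 and 2. It measured 3.08, 1.75 and 1.27 FPKM in Jonagold replicates 1, 2 and 3, against 0.988, 0.680 and 1.02 FPKM in Granny Smith replicates 1, 2 and 3. The Jonagold libraries differed from each other by up to 2.43-fold, and the lowest of them lay just above the highest Granny Smith library. These values rested on 44 to 108 reads per Jonagold library and 36 to 55 reads per Granny Smith library. The mean was 2.03 ± 0.940 FPKM in Jonagold and 0.897 ± 0.189 in Granny Smith (SD, n = 3), a ratio of 2.27, and the log2 fold change on log2(FPKM + 1) was 0.64 (standard error 0.23). The ratio was 1.68 without Jonagold replicate 1, which held the highest value. When libraries were scaled to their recovered reads it was 1.76, and Jonagold replicate 3, at 1.14, then lay between the Granny Smith values of 0.776 and 1.19.

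MdPAL-1 (MD12G1116700, chromosome 12) showed the largest ratio of the PAL genes. Its FPKM was 1.48, 1.16 and 0.489 in Jonagold replicates 1, 2 and 3, against 0.0628, 0.180 and 0.0789 in Granny Smith replicates 1, 2 and 3. The 3 Jonagold values were above the 3 Granny Smith values, and Jonagold replicate 3 was the lowest Jonagold library, as it was for MdPAL-2. There were 49, 43 and 16 reads in Jonagold against 3, 9 and 4 reads in Granny Smith. The ratio of mean FPKM was 9.72, and the exact 95% interval of the ratio of summed reads, set against the worth of a read in each library, was 5.73 to 17.6. Such intervals hold counting error alone and leave out the spread between libraries, because the reads of each variety were summed. For MdPAL-1 the exact 95% Poisson intervals of Jonagold replicates 1 and 3, 36.3 to 64.8 and 9.15 to 26.0 reads, did not overlap. Reads without molecular identifiers are also not independent molecules. Without Granny Smith replicate 2 the ratio was 14.7. The log2 fold change was 0.85 (standard error 0.19) on log2(FPKM + 1), a scale on which the added 1 FPKM is large beside these levels.

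MdPAL-3 (MD03G1121400, chromosome 3) measured 0.653, 1.29 and 1.47 FPKM in Jonagold replicates 1, 2 and 3, against 0.352, 0.336 and 0.0473 FPKM in Granny Smith replicates 1, 2 and 3. Here Jonagold replicate 1 was the lowest Jonagold library, whereas it was the highest for MdPAL-1 and MdPAL-2. The gene had 9 to 20 reads per Jonagold library and 7, 7 and 1 reads in Granny Smith. The ratio of mean FPKM was 4.64, with an exact 95% counting interval of 2.60 to 9.04, and leaving out single libraries gave 3.31 to 5.93. One read of MdPAL-3 added more FPKM than one of MdPAL-2, so that the length used for MdPAL-3 was 39.3% of that of MdPAL-2, whereas that of MdPAL-1 was 94.3%. These lengths assume that the recovered reads of both genes had no common divisor, and the values listed by the study show none particular to a single gene.

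The makeup of the PAL sum also differed between libraries. MdPAL-2 made up 59.1%, 41.7% and 39.3% of the PAL sum in Jonagold replicates 1, 2 and 3, against 70.4%, 56.8% and 89.0% in Granny Smith replicates 1, 2 and 3. MdPAL-1 contributed 15.2% to 28.4% in Jonagold and 4.48% to 15.1% in Granny Smith. These FPKM shares of MdPAL-2 overlapped between the varieties, with Jonagold replicate 1 above Granny Smith replicate 2. As shares of recovered reads, which are not corrected for gene length, they did not overlap, at 52.3% to 65.1% in Jonagold and 69.2% to 91.7% in Granny Smith. The MdPAL-1 shares came close to each other, at 15.2% in Jonagold replicate 3 and 15.1% in Granny Smith replicate 2. MdPAL-3 had the highest FPKM share of the 3 genes in Jonagold replicate 3, at 45.5%, but by recovered reads it held 25.0% there and MdPAL-2 held 55.0%.

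**Figure D2:**
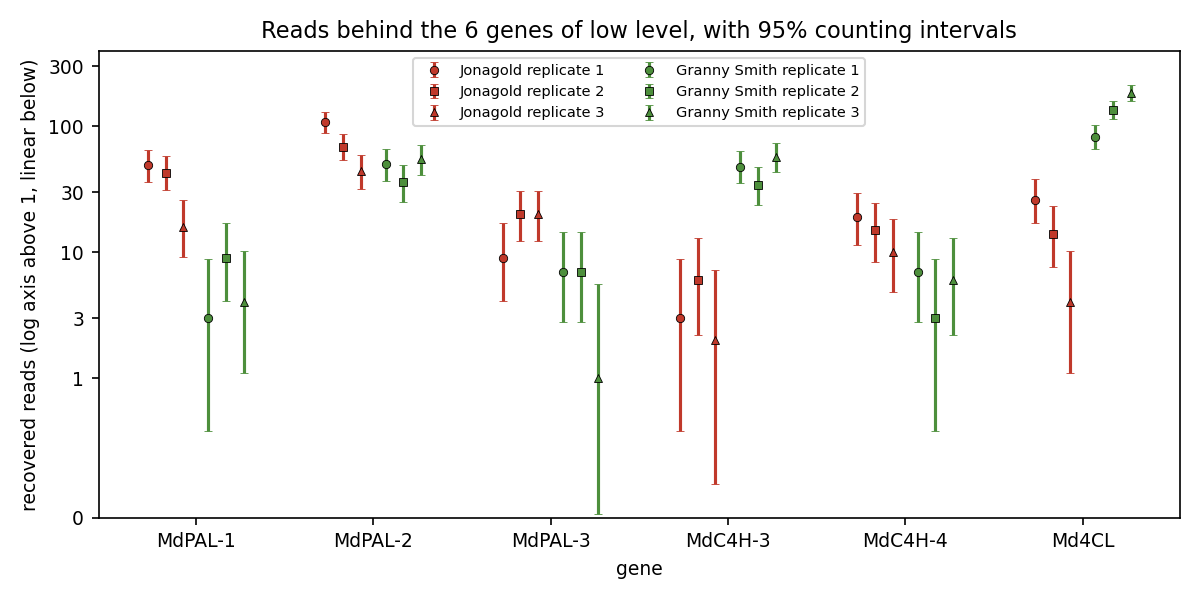
Recovered reads of the 6 genes of low level in each library (log axis above 1 read, linear below), with Jonagold in red left of Granny Smith in green and bars for the exact 95% Poisson interval of each count. MdPAL-3 has 1 read in Granny Smith replicate 3 and MdC4H-3 has 2 to 6 reads per Jonagold library, so that these intervals are wide.

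MdC4H-1 (MD00G1221400) lies on chromosome 00, which collects sequence not placed on a chromosome, and was the most abundant of the 8 genes. It measured 58.7, 37.9 and 36.1 FPKM in Jonagold replicates 1, 2 and 3, against 119, 84.7 and 105 FPKM in Granny Smith replicates 1, 2 and 3. All Jonagold values were below all Granny Smith values. The mean was 44.2 ± 12.6 FPKM in Jonagold and 103 ± 17.2 in Granny Smith (SD, n = 3), which is 2.32-fold lower in Jonagold (log2 fold change -1.22, standard error 0.20). It was above 92.8% of the genes detected in the series in Jonagold and above 97.7% in Granny Smith. With 881 to 1447 reads per Jonagold library and 3157 to 4238 reads per Granny Smith library, this gene had the best counting precision of the 8.

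MdC4H-2 (MD03G1050900, chromosome 3) was the second most abundant gene. It measured 20.4, 11.5 and 12.7 FPKM in Jonagold replicates 1, 2 and 3, against 42.9, 29.8 and 39.8 FPKM in Granny Smith replicates 1, 2 and 3. The mean was 14.9 ± 4.85 FPKM in Jonagold and 37.5 ± 6.84 in Granny Smith (SD, n = 3), which is 2.52-fold lower in Jonagold (log2 fold change -1.30, standard error 0.22). As for MdC4H-1, Jonagold replicate 1 was the highest of the Jonagold libraries and Granny Smith replicate 2 the lowest of the Granny Smith libraries. The ratio of MdC4H-1 to MdC4H-2 within a library was 2.87, 3.29 and 2.85 in Jonagold replicates 1, 2 and 3, against 2.77, 2.84 and 2.63 in Granny Smith replicates 1, 2 and 3. This ratio is the same under any scaling of whole libraries. All Jonagold values of this ratio were above all Granny Smith values, though the lowest Jonagold value of 2.85 lay within 0.02 of the highest Granny Smith value of 2.84. By mean FPKM, MdC4H-1 was 2.32-fold and MdC4H-2 2.52-fold lower in Jonagold.

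The remaining C4H genes were weakly expressed and went in opposite directions. MdC4H-3 (MD03G1051100) measured 0.120, 0.214 and 0.0809 FPKM in Jonagold replicates 1, 2 and 3, against 1.33, 0.902 and 1.49 FPKM in Granny Smith replicates 1, 2 and 3. These values came from 3, 6 and 2 reads in Jonagold and from 48, 34 and 57 reads in Granny Smith. The gene was 8.96-fold lower in Jonagold by the ratio of mean FPKM, with an exact 95% counting interval of 4.75 to 18.0, and 7.42-fold to 12.3-fold lower when single libraries were left out. On log2(FPKM + 1) its log2 fold change was -0.97 (standard error 0.13).

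MdC4H-4 (MD03G1051000) was the C4H gene that was higher in Jonagold. Its FPKM was 0.910, 0.640 and 0.484 in Jonagold replicates 1, 2 and 3, against 0.232, 0.0951 and 0.187 in Granny Smith replicates 1, 2 and 3. The lowest Jonagold library was above the highest Granny Smith library. There were 19, 15 and 10 reads in Jonagold and 7, 3 and 6 reads in Granny Smith, with a ratio of mean FPKM of 3.95 and an exact 95% counting interval of 2.19 to 7.53. Its log2 fold change on log2(FPKM + 1) was 0.51 (standard error 0.11).

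MdC4H-2, MdC4H-4 and MdC4H-3 have consecutive identifiers on chromosome 3, so that the gene higher in Jonagold stands between the other two. Within a library, MdC4H-4 was 7.57, 2.99 and 5.98 times the level of MdC4H-3 in Jonagold replicates 1, 2 and 3, against 0.174, 0.105 and 0.126 times in Granny Smith replicates 1, 2 and 3. MdC4H-4 was thus above MdC4H-3 in the 3 Jonagold libraries and below it in the 3 Granny Smith libraries, and scaling does not enter this ratio. Together they held 1.14% to 1.70% of the C4H sum in Jonagold and 0.862% to 1.15% in Granny Smith, with overlap between the varieties, so that MdC4H-1 and MdC4H-2 set the family sum in both varieties. How reads shared between copies of a family were assigned is not given in the sources used here, and the values of such copies are uncertain to that extent.

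**Figure D3:**
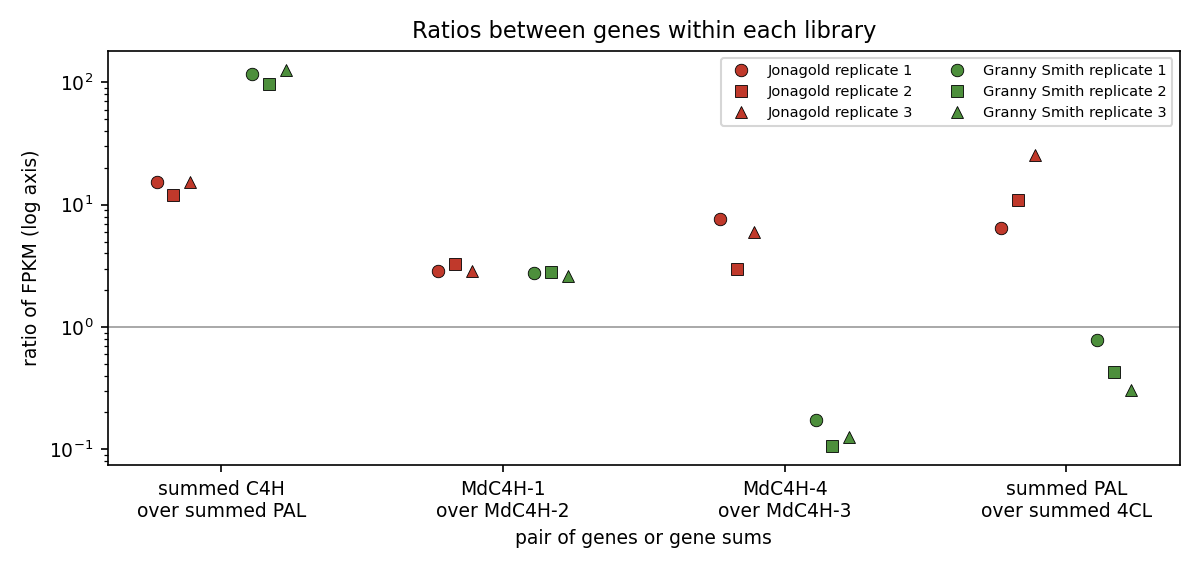
Ratios of FPKM between genes or gene sums within each library (log axis), with Jonagold in red left of Granny Smith in green and 1 symbol per replicate. The ratio of MdC4H-1 to MdC4H-2 lies between 2.63 and 3.29 in all libraries, whereas MdC4H-4 is above MdC4H-3 in the 3 Jonagold libraries and below it in the 3 Granny Smith libraries.

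Md4CL (MD17G1229400, chromosome 17) was lower in Jonagold and varied most among the Jonagold libraries. It measured 0.809, 0.388 and 0.126 FPKM in Jonagold replicates 1, 2 and 3, against 1.79, 2.80 and 3.77 FPKM in Granny Smith replicates 1, 2 and 3. The Jonagold libraries spanned a 6.44-fold range and the Granny Smith libraries a 2.11-fold range, without overlap between the varieties. The 26, 14 and 4 reads in Jonagold had exact 95% Poisson intervals of 17.0 to 38.1, 7.65 to 23.5 and 1.09 to 10.2, so that the first and the last did not overlap. The 83, 136 and 186 reads in Granny Smith also had separate intervals, of 66.1 to 103, 114 to 161 and 160.2 to 215, apart from a small overlap between replicates 2 and 3. By the ratio of mean FPKM the gene was 6.32-fold lower in Jonagold, and 10.9-fold lower without Jonagold replicate 1. The log2 fold change on log2(FPKM + 1) was -1.39 (standard error 0.25).

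Levels of the named genes of each step could be compared within each library, where library scaling does not enter. The C4H sum was 15.4, 12.0 and 15.3 times the PAL sum in Jonagold replicates 1, 2 and 3, against 117, 96.6 and 127 times in Granny Smith replicates 1, 2 and 3. The PAL sum was 6.45 to 25.7 times the level of Md4CL in Jonagold and 0.305 to 0.785 times in Granny Smith. The named PAL genes thus exceeded Md4CL in the 3 Jonagold libraries and were below it in the 3 Granny Smith libraries. These ratios are levels of the named genes and not of the enzymes. The contrast that chose the genes also enters the difference in these ratios between the varieties. Copies that the study did not name are left out, so that the ratios do not give the balance of whole families.

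The libraries of a variety tended to take the same order in several of the genes. Jonagold replicate 1 was the highest Jonagold library in 6 of the 8 genes, namely MdPAL-1, MdPAL-2, MdC4H-1, MdC4H-2, MdC4H-4 and Md4CL, beside 40.9% of all tested genes. Jonagold replicate 3 was the lowest in 6 of the 8, MdC4H-2 and MdPAL-3 being the exceptions, beside 30.9% of all tested genes. In Granny Smith, replicate 2 was the lowest library in 5 of the 8 genes, which were MdPAL-2 and the 4 C4H genes, beside 35.3% of all tested genes. This order within a variety was not used to choose the genes, but the values of 1 library share its scaling.

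**Figure D4:**
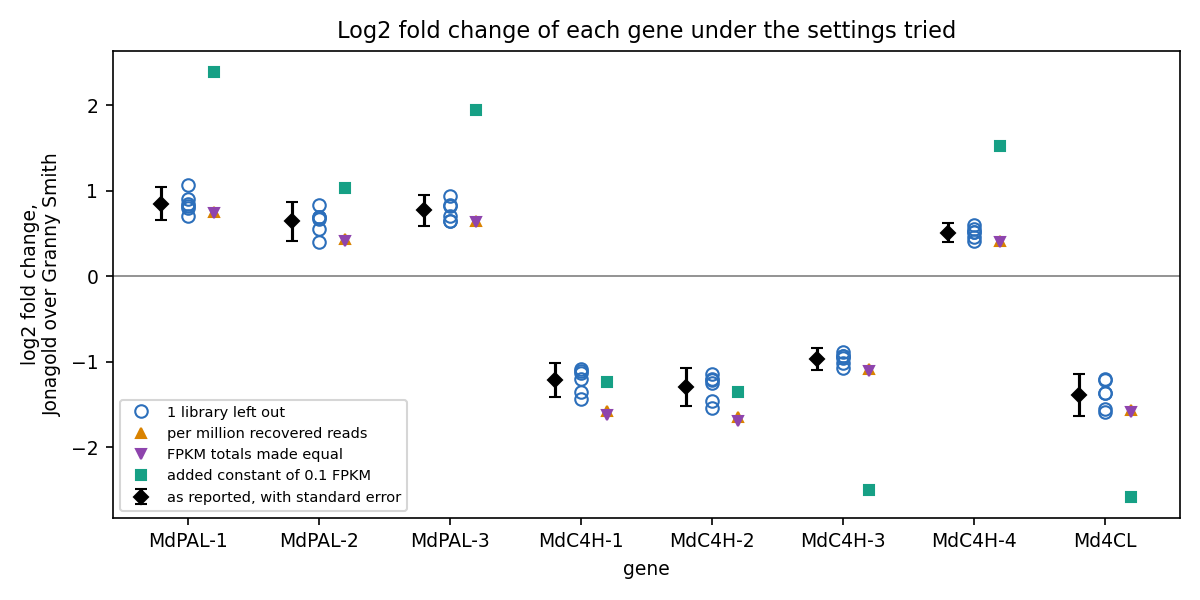
Log2 fold change on log2(FPKM + constant), Jonagold over Granny Smith, of each gene as reported with its standard error (black), with 1 library left out (open circles), under both scalings of whole libraries (triangles) and with 0.1 in place of 1 FPKM as the added constant (squares). No gene changes sign, and the low genes MdPAL-1, MdPAL-3, MdC4H-3, MdC4H-4 and Md4CL move most with the added constant.

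The genes whose profile over the 6 libraries was most like that of a tested gene were sought among 78 other tested genes that the study names. Likeness was the root mean square difference of log2(FPKM + 1), each gene being centred on its own mean. MdC4H-1 and MdC4H-2 were closest to each other, with a difference of 0.08. Of all tested genes 1, MdC4H-1 itself, was as close to MdC4H-2, and 3 were as close to MdC4H-1, MdC4H-2 among them. For MdPAL-2 the closest named gene was MdAAT-4, an alcohol acyltransferase gene, with a difference of 0.15, and 76 of all tested genes were as close. For Md4CL it was MdKASII, a ketoacyl-ACP synthase gene, with a difference of 0.27, and 194 of all tested genes were as close. These profiles hold the difference between the varieties by which the members and the other named genes were chosen, so that the likeness is a description and nothing is read from it.

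The study also names 6 genes for later steps of the pathway, chosen on the same libraries, so that their counts are a description too. Of these, 3 reached the minimum mean and were called. MdOMT-1 and MdOMT-2, which encode O-methyltransferases, were higher in Jonagold, and MdCCoAR, which encodes a cinnamoyl-CoA reductase, was lower. MdCCoAR measured 29.4, 27.6 and 21.0 FPKM in Jonagold replicates 1, 2 and 3, against 101, 70.5 and 83.1 FPKM in Granny Smith replicates 1, 2 and 3. Its 3.26-fold lower level in Jonagold went in the direction of MdC4H-1, MdC4H-2 and Md4CL. MdOMT-1 reached 2886 to 3726 FPKM in Jonagold and 23.1 to 36.1 FPKM in Granny Smith, and was the most abundant of all the pathway genes named. MdOMT-2, MdCADH-1 and MdCADH-2, of which the last 2 encode cinnamyl-alcohol dehydrogenases, were listed at 0 in the 3 Granny Smith libraries. MdOMT-3 had 1.03 to 1.73 FPKM in Jonagold and 0.0673 to 0.133 FPKM in Granny Smith.

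The genes next to the named ones by identifier were not chosen by the contrast and could be tested. Within 5 identifiers on either side of the members placed on a chromosome there were 50 other genes, of which 16 reached the minimum mean. Of these 16, limma called 3 higher and 2 lower in Jonagold, which is 31.2% beside 21.3% of all tested genes, and their median log2 fold change was 0.08. Without the minimum mean 7 neighbours were called, 3 higher and 4 lower in Jonagold. In that fit 4871 of all 34279 genes above 0 were called, 2761 being higher and 2110 lower. No direction is read from so few neighbours. These p-values set the difference between the varieties against the spread between libraries, which limma moderates across genes, and each library was a pool. None of the 5 tested genes before the C4H genes on chromosome 3 was called, with log2 fold changes of -0.63 to 0.46 and adjusted p-values of 0.052 to 0.90 from limma, and the 1 tested gene after them was called higher in Jonagold (log2 fold change 1.35). The lower level of MdC4H-2 was therefore not accompanied by a called change in these 5 genes. All 10 neighbours of MdPAL-1 were below the minimum mean.

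Around MdPAL-3, 2 neighbours were higher in Jonagold. MD03G1120800, which lies 4 identifiers before it, measured 28.3 ± 5.67 FPKM in Jonagold and 7.52 ± 1.90 in Granny Smith (SD, n = 3), and limma gave a log2 fold change of 1.79 with a standard error of 0.20 (adjusted p = 1.6e-04). MD03G1121300, the gene just before MdPAL-3, measured 3.87 ± 1.40 FPKM in Jonagold and 0.850 ± 0.300 in Granny Smith, and limma gave a log2 fold change of 1.37 with a standard error of 0.23 (adjusted p = 0.0015). The neighbours that were lower lay beside Md4CL and MdPAL-2. MD17G1229900, which lies 5 identifiers after Md4CL, measured 2.20 ± 1.92 FPKM in Jonagold and 15.7 ± 4.70 in Granny Smith, and limma gave a log2 fold change of -2.50 with a standard error of 0.38 (adjusted p = 9.1e-04). MD01G1107200, which lies 2 identifiers after MdPAL-2, measured 1.27 ± 0.158 FPKM in Jonagold and 7.17 ± 0.498 in Granny Smith, and limma gave a log2 fold change of -1.85 with a standard error of 0.13 (adjusted p = 1.7e-05). It was lower in Jonagold while MdPAL-2 was higher there. By contrast, MD17G1229900 was lower like Md4CL, and the 2 neighbours described for MdPAL-3 were higher like MdPAL-3. What these neighbours encode is not given in the deposited table.

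**Figure D5:**
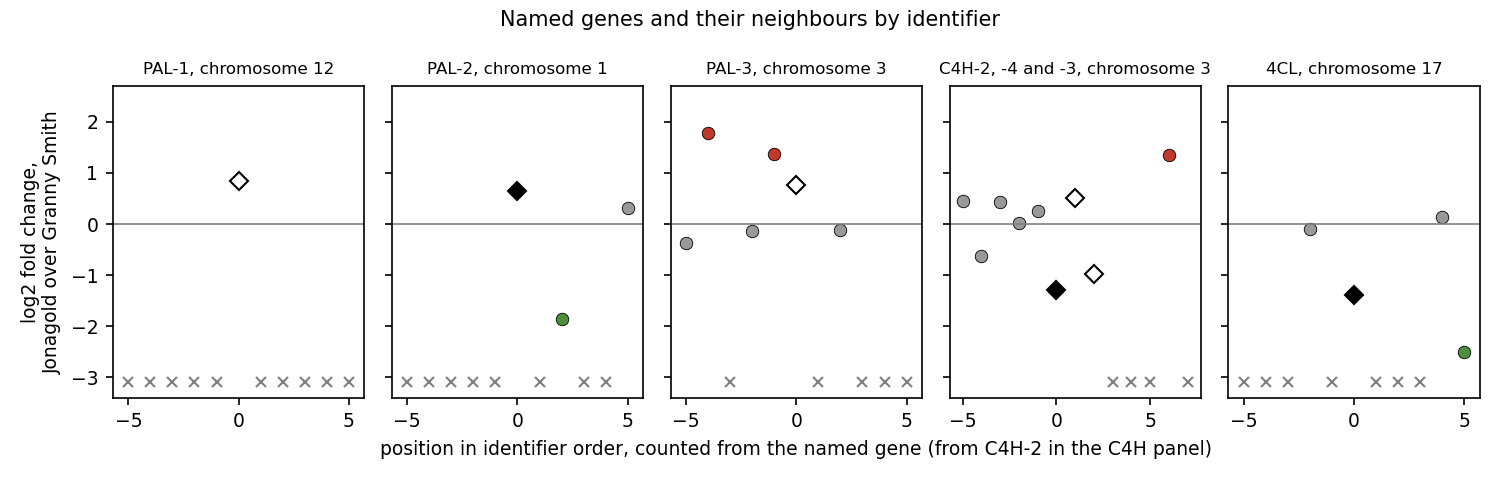
Log2 fold change on log2(FPKM + 1), Jonagold over Granny Smith, of the named genes (diamonds, filled where tested) and of the genes within 5 identifiers (circles, red for called higher, green for called lower, grey for not called), by position in identifier order. Crosses at the bottom mark neighbours below the minimum mean, which are all 10 around MdPAL-1.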

How the data were processed

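Per the paper's methods, the authors trimmed low-quality data, aligned what was left with the GDDH13 assembly and ran Cufflinks, and the FPKM values of each library were deposited as 1 column. The submitters' processing notes name the aligner Bowtie together with mouse genome builds, which cannot apply to apple, so that this entry was not relied on. All 6 columns were used. The members and lists were chosen with earlier results of these data known. Reads came back as whole numbers for all 34279 genes above 0, and this recovery was tested on simulated data. The varieties were set against each other in R 4.3.3 with limma 3.58.1 (lmFit and trended eBayes), applied to log2(FPKM + 1) of the 20993 genes whose mean was at least 1 FPKM. Calls needed a Benjamini-Hochberg adjusted p-value below 0.05 and a 2-fold difference. Members below the minimum mean took their log2 fold change from a fit without it. The fit was tested on simulated data. Counts, ratios and exact intervals were computed in Python 3.11.15 with scipy 1.17.1. Log2 fold changes are Jonagold over Granny Smith. The named genes were all 8 members, the 6 later pathway genes, the closest named profile of each tested member, and the 2 called neighbours with the largest change in each direction. Alternatives comprised leaving out each library, a block for the replicate number, other minimum means, scalings, added constants and neighbour windows, and fits without trend or fold criterion. Volatiles and qRT-PCR were not analysed here.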

Additional observations from a re-analysis of the deposited data

How the results depend on the processing

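None of the 8 genes changed its direction under the alternatives in which it had a value, and each library left out in turn gave the same 3 calls (MdC4H-1, MdC4H-2 and Md4CL). The alternatives used the same libraries that chose the genes. They thus show how far the values depend on processing and do not test the difference between the varieties. Md4CL and MdPAL-2 were not tested with a minimum mean of 2 FPKM, and MdPAL-2 was called in addition, with a log2 fold change of 1.03, when 0.1 in place of 1 FPKM was added. The added constant moved the low genes most, to 2.39 for MdPAL-1, 1.94 for MdPAL-3, -2.50 for MdC4H-3, 1.52 for MdC4H-4 and -2.58 for Md4CL. With libraries scaled to their recovered reads, 1900 genes passed as higher in Jonagold and 3143 as lower, and with equal FPKM totals 1841 and 3353, against 2515 and 1960 in the values as deposited. The median of all tested genes was then -0.31 and -0.34. Under these scalings the log2 fold change was -1.58 and -1.62 for MdC4H-1, -1.65 and -1.69 for MdC4H-2, -1.57 and -1.59 for Md4CL, and 0.43 and 0.41 for MdPAL-2. Relative to the median it was -1.27 and -1.28 for MdC4H-1, -1.34 and -1.35 for MdC4H-2, and 0.74 and 0.75 for MdPAL-2. Without the fold criterion 10371 of the 20993 tested genes passed the adjusted p-value from limma. All 4 tested members were among them, so that MdPAL-2 missed the call through the fold criterion. Among the neighbouring genes 7 were called without a minimum mean, and 2 were called within 3 identifiers and 13 within 10 identifiers, because fewer or more genes were tested (8 and 42). Mean shares by recovered reads in place of FPKM differed most in the PAL family. MdPAL-3 then held 15.2% in Jonagold and 8.93% in Granny Smith, against 29.6% and 19.1% by FPKM, and MdPAL-2 held 57.4% and 81.4%, against 46.7% and 72.1%. MdC4H-1 held 77.7% in Jonagold and 76.4% in Granny Smith, against 73.9% and 72.6%. With the replicate number as a block 4501 genes were called, and no call of the 8 genes changed. Deviations of same-numbered libraries correlated at 0.164, 0.280 and -0.031. No reference for unpaired libraries was computed, so that these values cannot decide whether a shared number marks a pairing. The labels give a replicate number and name no pairing. MdPAL-1, MdPAL-3, MdC4H-3 and MdC4H-4 are limited by depth, with 9 reads or fewer per library in 1 of the varieties.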
